A study of Homo sapiens with 4 samples.

Results

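The genes described here are 7 members of the connexin and pannexin families, GJA1, GJA5, GJB2, GJB5, GJB6, GJC1 and PANX1, out of 63856 genes in the count table. They were taken by symbol from a list that was drawn up with the comparison of HSF1-pLVX and wild type cells in view. GJA5 was picked as one of the deepest falls of that comparison. The members' values are therefore given as a description, without a test.

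Total RNA depleted of ribosomal RNA was sequenced from MCF10A, a non-tumorigenic line of human breast epithelial cells. There were 2 libraries of wild type cells and 2 of cells transduced by lentivirus with HSF1 cDNA in the pLVX-Puro vector and selected with puromycin (HSF1-pLVX). Both groups grew in DMEM/F12 with horse serum, insulin, hydrocortisone, EGF and cholera toxin. None of the 4 libraries of the series came from cells with the empty vector. The vector, the selection and the separate passage of the line therefore cannot be told apart from HSF1 itself.

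Connexins are the membrane proteins of gap junctions. A ring of connexins forms a hemichannel, and hemichannels of neighbouring cells dock to make a pore that passes ions and small metabolites from cell to cell. In mammary epithelium the basal cells are known for GJA1 (connexin 43) and the luminal cells for GJB2 (connexin 26). Pannexins resemble connexins in their membrane topology, but mostly act as single-membrane channels that release ATP, which is then sensed by purinergic receptors.

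The libraries held between 18688109 and 24184285 counts. HSF1 itself was at 194.8 ± 7.94 CPM (counts relative to library size, with TMM factors) in wild type against 990.5 ± 11.5 in HSF1-pLVX cells (SD, n = 2 in each group here and throughout). Of 10 mammary epithelial markers, 3 rose and 7 fell, beside 32.5% and 32.7% of all tested genes at an adjusted p of 0.05 or less. The summed level of the markers went from 16120 and 16110 CPM to 7518 and 7968. KRT17, the largest in wild type, fell from a mean of 7194 to 1220 CPM, while KRT5 rose from 2113 to 4592. KRT14 stood at 530.2 ± 17.2 CPM in wild type against 45.12 ± 2.38 in HSF1-pLVX cells, and TP63 at 9.688 ± 0.99 and 107.9 ± 2.86. KRT8 fell from 3165 to 335.4 CPM, KRT18 from 1638 to 492.3, KRT19 from 2.651 to 1.001 and EPCAM from 194.6 to 75.64. CDH1 also fell, from 854.1 to 317.7 CPM, and ITGA6 rose from 410.5 to 557.1. The part of these markers in the values of the members was not tested. GJA5 is best known from heart muscle and arterial endothelium. The 7 cardiac muscle markers summed to between 0.403 and 0.754 CPM in every library, with MYH6 at 0 in each. The 10 endothelial markers summed to between 20.75 and 23.81 CPM, with PECAM1, CDH5 and VWF below the filter on low counts. Members moved in both directions within that sum, with KDR at 1.659 ± 0.291 CPM in wild type and 12.6 ± 0.409 in the HSF1-pLVX group (called higher), and ROBO4 (8.086 to 1.729 CPM) and EGFL7 (11.08 to 4.447 CPM) called lower. The 10 fibroblast markers summed to 208.8 and 243.4 CPM in wild type and to 68.11 and 55.42 in HSF1-pLVX cells. Most of that sum was FAP, while COL1A2, COL3A1, LUM and THY1 held 3 counts or fewer in every library. DCN went against the sum, with 1 and 3 counts in wild type and 94 and 87 in the HSF1-pLVX libraries.

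By the call applied to every gene (adjusted p of 0.05 or less in edgeR's quasi-likelihood test and a difference of at least 2-fold), 3 of the 7 members were lower in HSF1-pLVX cells and 1 was higher. Over all 15830 genes tested, 14.0% were called lower and 14.9% higher by the same rule. Without the 2-fold limit 4 members were lower and 2 higher, against 32.7% and 32.5% of all genes. Since the members were chosen on this comparison, nothing is read from these counts. The lowest HSF1-pLVX value and the highest wild type value, or the reverse, left a gap between the groups in 6 of the 7, the exception being GJC1. Such a gap was present in 83.1% of all tested genes.

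GJA5, which encodes connexin 40, was the member with the largest difference. It lies on the minus strand of chromosome 1 (hg38, chr1:147756199-147773362, ENSG00000265107.2). It had 3803 and 3637 counts in the wild type libraries, or 202.6 and 195.7 CPM. In HSF1-pLVX cells 82 and 26 counts were left, or 3.266 and 1.309 CPM. Both wild type libraries were far above both HSF1-pLVX libraries, and HSF1-pLVX replicate 2 was the lowest of all. The mean fell from 199.2 ± 4.84 to 2.287 ± 1.38 CPM, which is 1.15% of the wild type level, and the log2 fold change was -6.41 (SE 0.151). It ranked 46 from the lowest among the 15830 fitted log2 fold changes. The size of the fall depended on which HSF1-pLVX library was read, at -7.24 without replicate 1 and -5.92 without replicate 2. A gene without a symbol, ENSG00000274415, covers 20.3% of the counted bases of GJA5 on the opposite strand, and it had 0 counts in every library.

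The promoter of GJA5 is shown because its transcript showed the deepest fall of the members. It is given 5′ to 3′ on the gene's strand, from 250 bases before the RefSeq start (GRCh38.p14) up to the base before the first counted base of the gene, at chr1:147773363-147773601.

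GJA5: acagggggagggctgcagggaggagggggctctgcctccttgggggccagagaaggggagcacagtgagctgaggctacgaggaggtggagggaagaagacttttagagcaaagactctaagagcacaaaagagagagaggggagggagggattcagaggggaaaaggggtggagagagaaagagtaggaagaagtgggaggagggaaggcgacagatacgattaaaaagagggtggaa

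On this strand A and G made up 77.7% of the 300 bases around the start, beside a median of 50.3% over all RefSeq windows. Of all windows, 0.0683% reached that share. No such share is given for the other GJA5 window or for the other members. The window was picked for the fall of GJA5, so nothing is read from its share. The window was searched on both strands for paired heat shock units (TTCNNGAA and GAANNTTC, the letters HSF1 is known to bind in tandem), the AP-1 site (TGANTCA), the GC box (GGGCGG or CCGCCC), the E-box of Snail-type factors (CAGGTG or CACCTG) and the TATA box (TATAAA or TTTATA). None of these letters was found in the 300 bases around either of the RefSeq starts of GJA5. Among 35116 RefSeq promoter windows of the same length, 7.74% held TTCNNGAA, 6.77% GAANNTTC, 7.71% the AP-1 site, 45.0% a GC box, 20.6% the E-box and 11.5% the TATA box.

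GJA1, which encodes connexin 43, the most widely expressed connexin of the body, went the other way. It lies on the plus strand of chromosome 6 (chr6:121435692-121449727, ENSG00000152661.7). Neither wild type library held a count of it (0 and 0), whereas the HSF1-pLVX libraries held 48 and 35. In CPM these are 0 and 0 against 1.912 and 1.762. The level in HSF1-pLVX cells was 1.837 ± 0.106 CPM, at least 11.4-fold higher than the wild type level that 3 counts per library would allow, and this limit covers counting error only. GJA1 passed the filter on low counts through the HSF1-pLVX libraries alone, so it had to differ to be tested. The level stayed low, at 1.93 and 1.64 TPM (counts divided by the counted length of the gene and scaled to a common sum). A processed copy, GJA1P1 on chromosome 5, had 3 and 4 counts in wild type against 1 and 1 in HSF1-pLVX cells. Reads that fit both genes could have been split between them or left out.

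The RefSeq promoter window of GJA1 held 1 of the searched motifs, an AP-1 site whose first base lies at position -48 from the start. It is printed with 10 bases on each side and the match in capitals (chr6:121435588-121435614, plus strand).

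GJA1: tcctcccagtTGAGTCAgtggcttgaa

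GJC1, which encodes connexin 45, was the member whose groups overlapped. It had 17.9 and 20.45 CPM in wild type against 20.0 and 19.63 in HSF1-pLVX cells. The log2 fold change was 0.05 (SE 0.127).

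**Figure D1:**
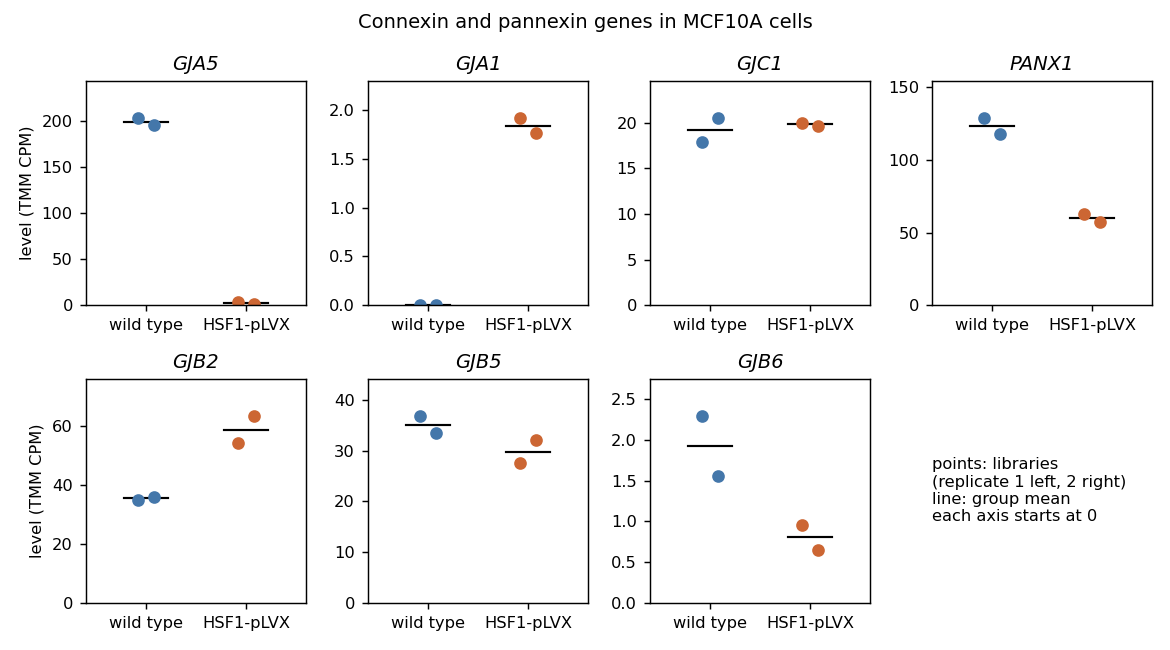
Level of each of the 7 members in CPM (linear axes from 0) in the 2 wild type and the 2 HSF1-pLVX libraries, with points for libraries and lines for group means. GJA5 drops from 199.2 to 2.287 CPM, GJA1 appears at 1.837 CPM, GJC1 stays near 20 CPM, and the remaining 4 genes differ by less than 3-fold.

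The beta connexins GJB2, GJB5 and GJB6 are typical of epithelia and of skin, and each took its own course. GJB2 (connexin 26; chr13:20187470-20192898, minus strand) was at 34.79 and 35.95 CPM in wild type against 54.09 and 63.22 CPM in HSF1-pLVX cells. Both HSF1-pLVX libraries were above both wild type libraries, although they were further from each other than the wild type pair. The mean rose from 35.37 ± 0.824 to 58.66 ± 6.46 CPM, or 1.66-fold (log2 fold change 0.73, SE 0.106). GJB2 was the only member other than GJA1 to be higher.

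GJB6 (connexin 30; chr13:20221971-20232395, minus strand) lies 29.1 kb from GJB2 and went in the opposite direction. It had 43 and 29 counts in wild type against 24 and 13 counts in HSF1-pLVX cells, or 2.291 and 1.561 against 0.956 and 0.6544 CPM. The groups did not overlap, but the wild type libraries differed from each other by about as much as the nearest libraries of the 2 groups. The log2 fold change was -1.25 (SE 0.367). The call was lost in DESeq2 (-1.27), without wild type replicate 1 (-0.92) and without HSF1-pLVX replicate 2.

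GJB5 (chr1:34755047-34758512, plus strand) was at 36.81 and 33.48 CPM in wild type against 27.52 and 32.01 CPM in HSF1-pLVX cells. The nearest libraries of the groups were almost level. The log2 fold change of -0.24 (SE 0.112) lost its call in 8 of the alternatives, under which it ran from -0.34 to -0.13.

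PANX1, the widely expressed ATP release channel (chr11:94128928-94181972, plus strand), was at 128.5 and 117.9 CPM in wild type against 62.7 and 57.23 CPM in HSF1-pLVX cells. Both HSF1-pLVX libraries were well below both wild type libraries, and the ratio was the same in both replicate numbers. The mean fell from 123.2 ± 7.47 to 59.96 ± 3.86 CPM, which is 48.7% of the wild type level (log2 fold change -1.04, SE 0.105). The value sits at the edge of the 2-fold limit, and it was -0.95 with upper quartile factors and -0.98 with library size alone.

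The study counted a gene as changed where its ratio of normalized values exceeded 2.0 or was below 0.50 in both replicates. Computed from the deposited normalized values, PANX1 had ratios of 0.476 and 0.486 and GJA5 of 0.019 and 0.011. GJA1 had ratios of 6.271 and 5.91, which are set by the floor of that table, since both its wild type values lie on it. GJB6, at 0.539 and 0.587, and GJB2, at 1.494 and 1.729, did not reach the limits, so 2 members were lower and 1 higher by this rule. The deposited values of GJB6 ran from 4.8 to 5.99, not far above the floor of 3.118. In CPM its log2 ratios were -1.26 and -1.25 in replicates 1 and 2, so its place beside the limit depends on the scale. The share of all genes that met the rule is not given here, so nothing is read from these counts.

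The promoters of PANX1 and GJB6 were the members' windows that held paired heat shock units. PANX1 is shown from 250 bases before its RefSeq start to the base before it (chr11:94128591-94128840, plus strand), with a GC box and a TTCNNGAA match in capitals. Another copy of TTCCGGAA starts at position 22 after the RefSeq start.

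PANX1: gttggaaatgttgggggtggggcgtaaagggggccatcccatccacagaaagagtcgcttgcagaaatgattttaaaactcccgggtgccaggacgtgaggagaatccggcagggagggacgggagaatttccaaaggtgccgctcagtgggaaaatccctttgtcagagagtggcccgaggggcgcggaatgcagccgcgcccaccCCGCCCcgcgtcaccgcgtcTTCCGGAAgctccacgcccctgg

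GJB6 is shown with 10 bases on each side of its match, which starts at position -184 (chr13:20231145-20231172, minus strand).

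GJB6: ctaaccagtgTTCTAGAAgaaaatgtcc

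The letters TTCCGG in the PANX1 match are also those that ETS factors are known to bind, so the motifs cannot be told apart by their letters. The window of GJB2 held 3 GC boxes, at -155, -97 and -85, and the E-box CAGGTG at -5, but no paired heat shock unit. Windows were found for 5 of the 7 members. GJB5 and GJC1 had none. Each match is a description of the letters and not of binding, which was not measured.

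Other genes of the connexin and pannexin families were looked at in the same fit. Of the 14 reported here, 3 passed the filter on low counts. Of these 1 fell and none rose, beside 32.7% lower and 32.5% higher over all tested genes. DESeq2 likewise called 1 lower and 0 higher, and 0 had an unadjusted p under 0.05 in the upward direction. PANX2, a pannexin best known from the nervous system, was at 23.01 and 21.04 CPM in wild type against 3.824 and 4.832 CPM in HSF1-pLVX cells (log2 fold change -2.36, SE 0.158, adjusted p = 2.20e-48). Both HSF1-pLVX libraries were well below both wild type libraries.

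The lens connexin GJA3 had a log2 fold change of 0.35 (adjusted p = 0.206) and GJC3 one of 0.16 (adjusted p = 0.793). Neither passed the test. The remaining 11 genes were under the filter. Of these, 6 had 0 counts in all libraries, and GJA4, GJA9, GJB7, GJD3 and PANX3 had between 0 and 6 counts per library. GJB1, the connexin of liver and Schwann cells, was among those at 0.

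**Figure D2:**
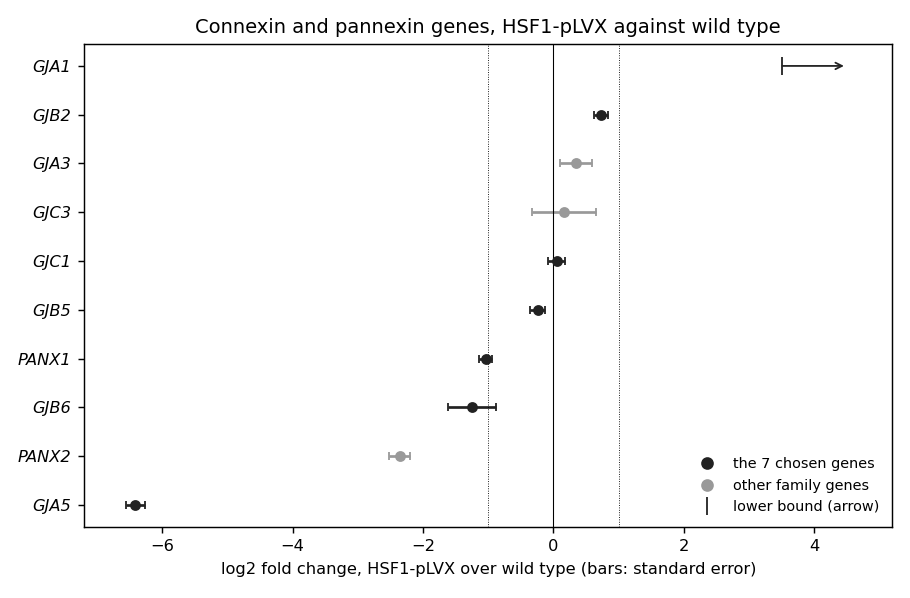
Log2 fold change of HSF1-pLVX over wild type for the 10 connexin and pannexin genes tested and reported here (bars are standard errors, dotted lines mark 2-fold). GJA1 is drawn as a lower bound with an arrow; GJA5 at -6.41 stands apart from the next lowest, PANX2 at -2.36.

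Divided by gene length, the connexin transcripts of a library can be added up. The summed level of the 21 connexin genes was 597 and 602 TPM in the wild type libraries and 295 and 300 TPM in the HSF1-pLVX libraries. A large part of the sum in every library lies in connexin genes that are not reported here. The mean sum fell from 599 to 298 TPM, while the mean of GJA5 fell from 189 to 2.08 TPM. By these means the fall of the sum was larger than that of GJA5 alone. GJA5 made up 31.3 and 31.8% of this sum in wild type cells and 1.03 and 0.374% in HSF1-pLVX cells. The share of GJB2 was 7.29 and 7.91% in wild type against 23.2 and 24.5% in HSF1-pLVX cells. GJB5 went from a mean share of 13.5% to 21.7% although its own level did not rise. GJA1 made up 0.655 and 0.546% of the sum in the HSF1-pLVX libraries, though reads that also fit GJA1P1 may be missing from its count. These are shares of RNA, and fewer expressing cells cannot be told apart from less RNA per cell in bulk libraries.

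**Figure D3:**
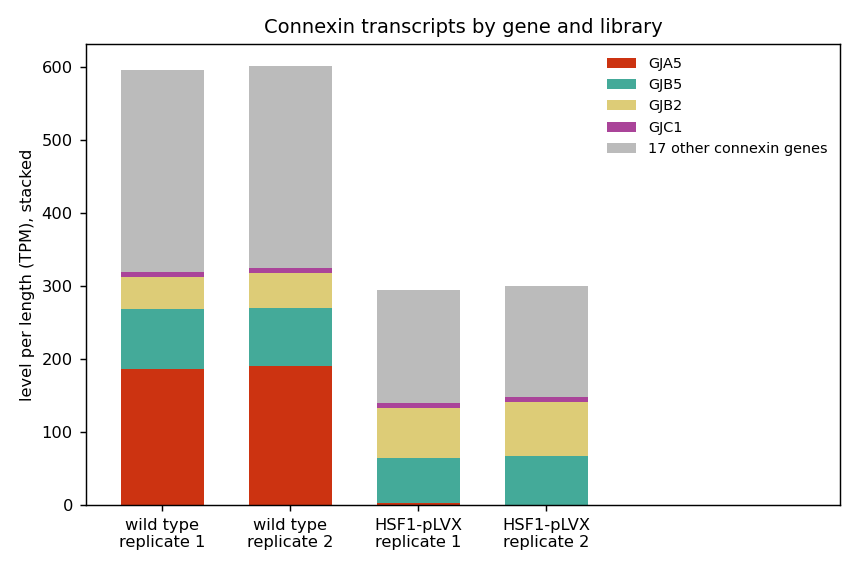
Summed level of the 21 connexin genes per library, in TPM (counts divided by counted length), stacked with 4 members named and the 17 other genes pooled in grey. The wild type stacks reach 597 and 602 TPM and the HSF1-pLVX stacks 295 and 300 TPM. The GJA5 layer is close to absent from the HSF1-pLVX stacks. Much of the grey layer is connexin genes that are not reported here.

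Among the genes reported here, the order of levels in wild type cells was GJA5 (189 TPM), PANX1 (139), GJB5 (80.9), GJB2 (45.6), PANX2 (22.2), GJC1 (6.93), GJB6 (2.26) and GJA3 (1.70). The ranges of neighbouring genes did not overlap over these 8 genes. In HSF1-pLVX cells the order was GJB2 (71.0 TPM), GJB5 (64.5), PANX1 (63.9), GJC1 (6.74), PANX2 (4.09), GJA5 (2.08), GJA3 (2.04) and GJA1 (1.78). Here PANX1 (58.4 to 69.4 TPM) overlapped with GJB5 and with GJB2 (68.3 to 73.6). GJA5 (1.12 to 3.04 TPM) overlapped with GJA3 and with GJA1 (1.64 to 1.93). The place of GJA1 is limited further by reads that may also fit GJA1P1. GJA5 thus went from the head of this order to the level of connexins that were scarce in both groups, and GJB2 came to lie above GJB5.

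Some connexin genes lie beside each other on the chromosomes. On chromosome 13, GJA3, GJB2 and GJB6 follow each other, with log2 fold changes of 0.35, 0.73 and -1.25. GJB2 and GJB6 of that cluster thus differed in direction.

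The tested protein-coding genes nearest to GJA5 were ACP6, at 85.7 kb (log2 fold change -0.25, adjusted p = 0.0763), and GPR89B, at 155 kb (0.05, adjusted p = 0.869). Neither passed the test. Among the 8 tested genes within 500 kb of GJA5, log2 fold changes ran from -0.51 to 2.21. Of these, 3 were called higher and 1 lower, beside 32.5% and 32.7% of all tested genes. Around GJA1, TBC1D32 (101 kb away) rose by 0.81 on the log2 scale (adjusted p = 0.00444), and HSF2, a relative of HSF1 that lies 950 kb away, by 0.63 (adjusted p = 0.00152). Both calls were lost in DESeq2, and that of TBC1D32 also without HSF1-pLVX replicate 1. Around PANX1, which fell, both HEPHL1 (0.58, adjusted p = 4.26e-05) and MRE11 (1.22, adjusted p = 7.62e-28) rose. CRYL1, 171 kb beyond GJB6, fell by 1.05 (adjusted p = 6.78e-13). Beside GJC1, DBF4B rose by 1.66 (adjusted p = 7.81e-24). EFTUD2 had a log2 fold change of 0.27 (adjusted p = 0.0185) and lost its call in 5 alternatives, namely with no filter, in DESeq2 and without wild type replicate 2 or either HSF1-pLVX replicate. ZSCAN20, the nearest tested protein-coding gene before GJB5, lies 1260 kb away and did not pass the test (-0.25, adjusted p = 0.246).

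The genes whose pattern over the 4 libraries was most like that of GJA5, by the distance between centred log2(CPM + 0.5) values, were TUBA1A (distance 0.63), CPA4 (0.64) and NID2 (0.68). TUBA1A went from 629.4 and 661.6 CPM in wild type to 10.64 and 8.809 CPM. For GJA1 they were CGAS (0.058), TRABD2A (0.09) and GREB1 (0.094). CGAS went from 4.954 and 4.79 CPM to 24.54 and 24.06 CPM. The distance for GJA1 depends on the added 0.5, since its wild type libraries are at 0.

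Gap junction plaques are held in place by scaffold and adhesion proteins. Of 14 such genes, 13 were tested, and 10 fell, 2 rose and 1 did not pass the test. The median log2 fold change was -0.84, beside 0.02 for all tested genes, of which 32.7% were lower and 32.5% higher. CDH2, the neural cadherin, was at 27.12 and 25.51 CPM in wild type against 1.275 and 0.5537 CPM in HSF1-pLVX cells (log2 fold change -4.80, adjusted p = 1.23e-124), and the log2 fold change was -5.55 without HSF1-pLVX replicate 1 and -4.35 without replicate 2. DBN1, the actin-binding protein drebrin that holds GJA1 at the membrane, fell from 428.3 to 90.4 CPM (-2.24, SE 0.125, adjusted p = 1.15e-69). CD9, a tetraspanin, fell by 1.53 on the log2 scale (adjusted p = 4.61e-35), the epithelial cadherin CDH1 by 1.43 (adjusted p = 1.46e-22) and its partner CTNNB1 by 0.74 (adjusted p = 5.52e-08). CDH1 is also among the epithelial markers.

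CAV1, the main protein of caveolae and a partner of GJA1, rose from 448.7 to 964.6 CPM (1.11, SE 0.147, adjusted p = 3.63e-13). TJP1 (ZO-1), the scaffold that binds the tail of several connexins, had 109 and 103 counts in wild type against 122 and 32 in HSF1-pLVX cells. Its log2 fold change of -0.87 (adjusted p = 2.02e-04) rested on HSF1-pLVX replicate 2, without which it was -0.21. Without the replicate block its adjusted p was 0.0532, and the call was also lost in DESeq2 and with library size alone. These counts are low for a scaffold that epithelial cells are known to express well, and the cause was not tested.

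Connexins turn over within hours, through ubiquitin ligases and clathrin-mediated uptake. All 15 genes of assembly, trafficking and turnover were tested, with 10 lower, 1 higher and 4 not past the test. Over all tested genes 32.7% were lower and 32.5% higher. The median log2 fold change of the list was -0.52. DAB2, an adaptor for clathrin-mediated uptake, fell by 1.88 on the log2 scale (adjusted p = 7.71e-64). The ubiquitin ligases SMURF2 and TRIM21 fell by 1.51 (adjusted p = 6.35e-44) and 1.05 (adjusted p = 9.42e-23).

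Of the 11 kinases that phosphorylate connexins, 4 were higher and 4 lower, beside 32.5% and 32.7% of all tested genes. The median log2 fold change of the list was -0.02, and 0.07 with upper quartile factors. CDK1, the mitotic kinase, rose by 2.32 (adjusted p = 1.14e-70) and PRKCE, a protein kinase C, by 1.07 (adjusted p = 1.16e-06). MAPK3 (ERK1) fell by 1.27 (adjusted p = 2.57e-33). SRC and CSNK1D, both known to phosphorylate GJA1, had log2 fold changes of -0.02 (adjusted p = 0.879) and -0.06 (adjusted p = 0.670), and with upper quartile factors both were above 0.

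Of 14 genes for pannexin partners and purinergic signalling, 12 were tested. There were 6 higher and 4 lower, beside 32.5% and 32.7% of all tested genes. The median log2 fold change was 0.34, but 0.09 with no filter on low counts and -0.12 with at least 50 counts required in 2 libraries. The ATP-gated channel P2RX7, a known partner of PANX1, had 3 and 4 counts in wild type against 24 and 23 in HSF1-pLVX cells (log2 fold change 2.46, SE 0.553). The ADP receptor P2RY1 had 5 and 2 counts in wild type against 34 and 38 in HSF1-pLVX cells (3.07, SE 0.514, and 3.85 without wild type replicate 1). Both are among the 6 called higher, but they passed the filter on low counts through the HSF1-pLVX libraries alone, so they had to be higher to be tested. NT5E (CD73), the ectoenzyme that makes adenosine, fell from 461.2 to 192.1 CPM (-1.27, SE 0.126, adjusted p = 1.25e-22). P2RY11 rose by 1.28 (adjusted p = 1.08e-09), but 59.2% of its counted bases are shared with other genes, so its value is uncertain.

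Of 11 transcription factors known to act on connexin genes, 8 were tested. There were 4 higher and 3 lower, beside 32.5% and 32.7% of all tested genes. The median log2 fold change of the list was 0.28, and -0.14 with no filter on low counts. TBX3, a repressor of GJA1 and GJA5 in the heart, fell by 0.53 (SE 0.159, adjusted p = 1.66e-03), a call lost in DESeq2 and without HSF1-pLVX replicate 2. TFAP2C, an AP-2 factor of mammary epithelium, fell from 27.82 to 14.05 CPM (-0.99, SE 0.126, adjusted p = 3.07e-14). Of those called higher, TBX18 rose from 7.606 to 14.87 CPM (0.97, SE 0.156, adjusted p = 2.11e-09). IRX3, SP1 and SP3 rose by 0.37, 0.27 and 0.28.

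**Figure D4:**
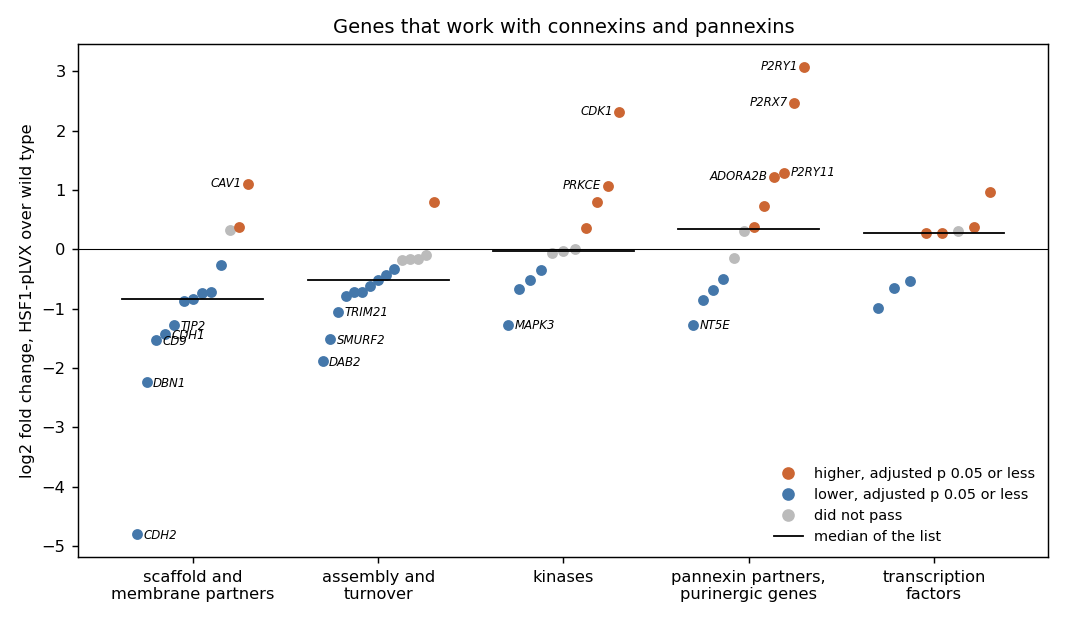
Log2 fold change of HSF1-pLVX over wild type for each tested gene of 5 lists (points coloured by call, genes called beyond 2-fold named, black lines the list medians). The scaffold and turnover lists lie mostly below 0, with medians of -0.84 and -0.52, and the kinases lie around 0.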

How the data were processed

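The authors deposited raw counts per gene, obtained by aligning paired-end 76 bp reads to hg38 with HISAT2 2.0.5 and counting with featureCounts 1.6.5 against GENCODE 26, with SAMtools 1.13 between. The strand, overlap and multi-mapping settings are not given in the sources used here. They also deposited log2-scale values normalized with DESeq2 1.32.0, with a floor of 3.118, used here only for the study's ratios. Symbols came from GENCODE 44 and promoters from RefSeq.

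Groups were taken from the labels. The test was that of edgeR 4.0.16 under R 4.3.3 (TMM, factors 0.9635 to 1.04, filterByExpr, quasi-likelihood test, replicate number as a block, Benjamini-Hochberg over 15830 genes). The standard error is the log2 fold change divided by the square root of F. DESeq2 1.42.0, other scalings and filters, no block and each library left out were alternatives. The prior degrees of freedom were infinite with the block, so p-values draw on the spread of the other genes, and on libraries whose independence as cultures is not stated. The scripts were tested on simulated data.

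Some genes of the families are not reported here, though the summed connexin level includes every connexin gene. The members and lists were chosen with earlier results of these data known. Named genes are the 7 members, the other family genes reported, the 4 largest called 2-fold changes of each list, TJP1, CAV1, CDH1, CTNNB1, CSNK1D, SRC, P2RX7, TBX3 and TFAP2C, the nearest tested genes and the 3 closest patterns. KRT14, TP63, FAP, GJB1 and the other markers named were chosen after their values were seen. The same holds for TBX18, IRX3, SP1 and SP3.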

Additional observations from a re-analysis of the deposited data

How the results depend on the processing

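Of the values of single genes under an alternative, 537 kept their side of the threshold, 25 lost a call and 3 gained one. In 10 cases the sign changed (GJC1, GJC3, GPR89B, SRC and CSNK1D, from -0.36 to 0.08), in 0 of them for a called value. GJA5 kept its call in each alternative run. Leaving out a library gave 1 to 3 members at least 2-fold lower, with 1 without wild type replicate 1 (PANX1 at -0.96 was then within 2-fold and GJB6 at -0.92 not called) and 1 without HSF1-pLVX replicate 2 (PANX1 again at -0.96), and the scaffold list then had 1 to 2 genes higher. With at least 50 counts required in 2 libraries, GJA1 was not tested, 0 members were higher, and the purinergic list had 3 genes higher in place of 6. The transcription factors called higher numbered 4, but 2 with no filter, 1 in DESeq2 and between 2 and 4 with a library left out. DESeq2 called 3318 genes higher in place of 5138. By CPM, not divided by length, GJA5 made up 39.5% and GJB2 7.01% of the connexins in wild type. The lowest levels are limited by depth, since 3 counts are 0.16 CPM in wild type replicate 1.

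Same-numbered libraries did not deviate together (correlation -0.015 over all genes, -0.114 over 9672 genes above 8 CPM), so the numbers are not shown to pair them. With no replicate block, 3 members were at least 2-fold lower and 1 higher, 5253 genes in all were lower and 5175 higher, and TJP1 (-0.77) lost its call. The smallest p-values depended on the block. In edgeR without it, the adjusted p was 1.45e-10 for CDH2 in place of 1.23e-124, and 3.79e-09 for PANX2 in place of 2.20e-48. The crossed pairing, added after seeing the data, gave 5487 lower and 5429 higher.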
